A study of Homo sapiens with 24 samples.

Results

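The comparison set 3 libraries of the J82 subline with high CD44v6 receptor expression against 3 libraries of the J82 subline with low CD44 receptor expression, across all genes of the deposited count table. J82 is a human bladder cancer cell line. The 6 libraries are part of 24 in the series, which holds 4 groups of J82 and 4 of RT-112, another bladder cancer line: parental cells, CD44 Low, CD44 High and CD44v6, with 3 biological replicates each. The labels give CD44v6 expression as high in the CD44v6 subline and name no treatment or time point for any group. How the sublines were derived, and whether each is a single clone, is not given in the sources used here, so the replicates measure the spread between samples of a subline and not between independently derived sublines. Total RNA was sequenced, and the 6 libraries held 16752825 to 20150202 counts. Of 35993 genes in the table, 11909 had no count in any of the 6 libraries, and 15951 passed the filter on low counts and were tested.

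CD44 is a surface glycoprotein that binds hyaluronan in the extracellular matrix, and its cytoplasmic tail is tied to actin through ezrin, radixin and moesin. Its transcript is spliced into a standard form and into variants that carry extra exons in the part outside the membrane. Isoforms with variant exon v6 are known as co-receptors for MET and its ligand HGF, and in normal urothelium CD44 marks the basal layer. Counts per gene sum all isoforms, so the v6 exon itself was not measured here.

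The results turn first on CD44, for which the groups are named, and on 3 genes with large changes: ITGA2 and CDCP1, which were higher in CD44v6, and IGFBP5, which was lower. To place these genes, the 250 bases before their transcription starts are shown as RefSeq gives them (GRCh38.p14, 5′ to 3′ on the strand of the gene). Capitals mark matches to the TEAD motif GGAATG or the AP-1 motif TGANTCA, searched on both strands. CD44 is on the plus strand at chr11:35138921-35139170 and ITGA2 on the plus strand at chr5:52989102-52989351. CDCP1 is on the minus strand at chr3:45146379-45146628 and IGFBP5 on the minus strand at chr2:216695550-216695799.
CD44: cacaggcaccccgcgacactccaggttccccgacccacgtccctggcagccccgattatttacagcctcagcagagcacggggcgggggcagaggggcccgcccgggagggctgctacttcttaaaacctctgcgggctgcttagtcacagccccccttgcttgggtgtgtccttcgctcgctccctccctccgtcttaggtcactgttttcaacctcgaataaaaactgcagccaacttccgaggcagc
ITGA2: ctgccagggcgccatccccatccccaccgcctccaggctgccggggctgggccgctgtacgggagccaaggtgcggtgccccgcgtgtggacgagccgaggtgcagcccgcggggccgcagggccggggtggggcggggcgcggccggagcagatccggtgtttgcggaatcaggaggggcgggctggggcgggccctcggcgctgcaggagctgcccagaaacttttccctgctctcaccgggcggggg
CDCP1: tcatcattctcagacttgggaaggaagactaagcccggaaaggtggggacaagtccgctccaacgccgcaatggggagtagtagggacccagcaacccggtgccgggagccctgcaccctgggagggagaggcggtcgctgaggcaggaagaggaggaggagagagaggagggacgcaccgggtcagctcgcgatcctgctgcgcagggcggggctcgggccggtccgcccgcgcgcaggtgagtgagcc
IGFBP5: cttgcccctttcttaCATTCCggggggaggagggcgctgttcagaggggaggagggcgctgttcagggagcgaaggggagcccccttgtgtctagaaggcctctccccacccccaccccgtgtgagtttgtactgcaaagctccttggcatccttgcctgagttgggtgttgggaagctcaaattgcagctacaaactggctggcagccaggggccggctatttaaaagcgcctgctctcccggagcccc
The windows of CD44, ITGA2 and CDCP1 hold neither set of letters, and that of IGFBP5 holds 1 TEAD match, near its distal end. Among the 7860 tested genes with exactly 1 listed start, 9.15% of windows hold the TEAD letters and 3.75% the AP-1 letters. For genes called higher in CD44v6 the shares are 9.20% and 4.29% of 489 windows, and for genes called lower 8.60% and 5.02% of 279 windows. These are matches of letters only.

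CD44 itself separated the groups. Its level was at 725, 1076 and 617 CPM in CD44v6 and at 312, 275 and 255 CPM in CD44 Low, where CPM is the usual library-size scaling of counts, with TMM factors. Every CD44v6 library lay above every CD44 Low library, with replicate 2 of CD44v6 the highest. Parental cells lay between them at 448 ± 46.9 CPM (SD, n = 3), and CD44 High cells were at 734 ± 32.6 CPM (SD, n = 3). The difference of CD44v6 from CD44 Low passed edgeR's quasi-likelihood test with Benjamini-Hochberg adjustment (log2 fold change 1.52, SE 0.17, adjusted p = 7.90e-05). In bulk samples, fewer cells with a transcript and less of it per cell cannot be told apart, here or below.

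In all, 1528 of 15951 genes (9.58%) had an adjusted p under 0.05, which is what "called" means below. Of these, 986 were higher in CD44v6 (6.18% of the genes tested) and 542 were lower (3.40%). The median log2 fold change was 0.77 over the genes called higher, -0.62 over those called lower and -0.01 over all genes tested. A change of at least 4-fold was reached by 107 genes that rose and 26 that fell. The libraries of the groups did not overlap for 1508 of the called genes, against 3727 of all genes tested (23.4%). In all 6 fits that left out a library in turn, 790 genes stayed called, and the total was smallest, 1024, without CD44 Low replicate 2. A fit of the 6 libraries alone, which estimates the spread from fewer samples, called 636. The groups also differed in spread. The biological coefficient of variation was 0.25 in CD44v6 and 0.21 in CD44 Low, against 0.08 in parental and 0.16 in CD44 High cells. The main fit shares an estimate of 0.18, below that of either group compared, so its adjusted p-values may be too small. The part of this in the counts was not tested.

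**Figure D1:**
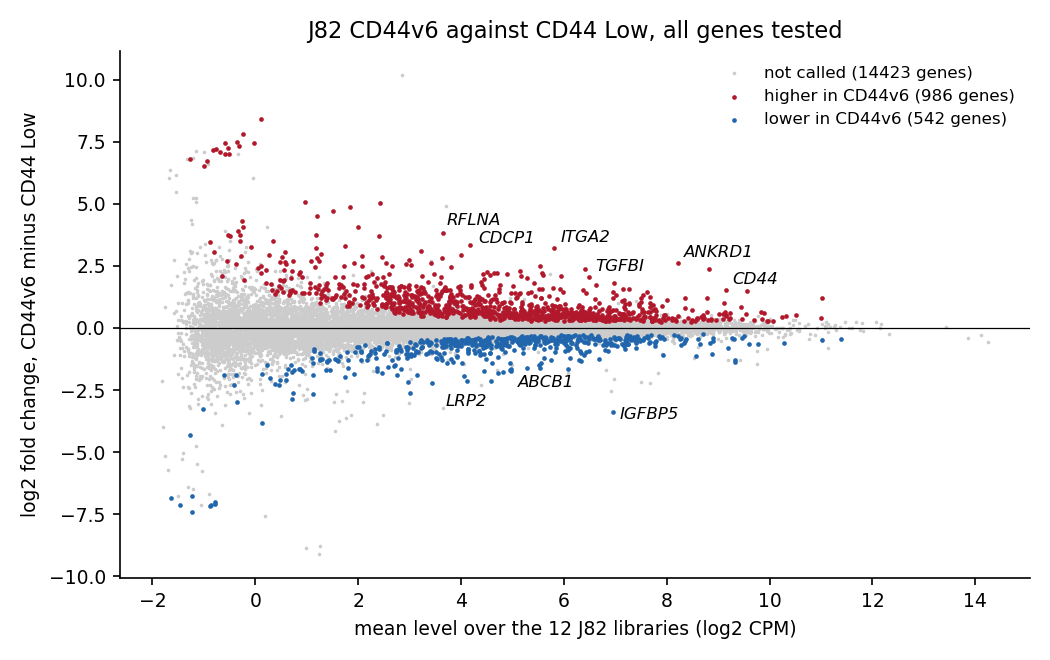
Log2 fold change of CD44v6 minus CD44 Low (vertical axis) against the mean level over the 12 J82 libraries in log2 CPM (horizontal axis), 1 point a gene. Of the genes called, 986 lie above 0 (red) and 542 below (blue), and genes with no count in a group, such as CSF2, have a fitted value that sets no size.

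The largest increases included genes of the cell surface and the actin cytoskeleton. ITGA2, the collagen-binding integrin subunit alpha 2, was at 84.1, 111 and 88.6 CPM in CD44v6 and at 10.5, 8.84 and 11.6 CPM in CD44 Low. CDCP1, a membrane glycoprotein phosphorylated by Src-family kinases, was at 25.8, 36.1 and 25.6 CPM in CD44v6 and at 2.75, 3.04 and 2.82 CPM in CD44 Low. Neither gene had overlapping groups (log2 fold change 3.20, SE 0.16, adjusted p = 4.49e-07 for ITGA2, and log2 fold change 3.34, SE 0.18, adjusted p = 4.49e-07 for CDCP1). RFLNA, refilin A, a filamin-binding regulator of actin, went from 0.899, 0.705 and 2.42 CPM in CD44 Low to 19.4, 15.8 and 21.1 CPM in CD44v6 (log2 fold change 3.81, SE 0.33, adjusted p = 1.08e-05). FSCN1, which bundles actin in filopodia, was at 21.3, 32.4 and 28.1 CPM in CD44v6 and at 2.81, 3.14 and 4.84 CPM in CD44 Low (log2 fold change 2.92, SE 0.25). ITGA2, CDCP1, RFLNA and FSCN1 were chosen among genes whose groups did not overlap, so the lack of overlap follows from the choice.

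The ephrin receptor EPHB2 rose by 2.83, ANKRD1, a nuclear ankyrin-repeat protein known as a YAP target, by 2.61, and the protocadherin PCDH1 by 2.46 on the log2 scale. SCG2, a protein of secretory granules, rose by 2.51 and MME, the membrane peptidase neprilysin, by 2.39. For these 5 genes and for ITGA2, CDCP1, RFLNA and FSCN1, the parental mean lay between the sublines. Against parental cells, ITGA2 differed by 1.42 in CD44v6 and by -1.78 in CD44 Low, and CDCP1 by 1.47 and -1.87, in comparisons that share libraries with the main one. Those comparisons called 2.60% and 5.34% of the genes tested. CD44 High minus CD44 Low gave 3.03 for ITGA2, 3.36 for CDCP1, 3.97 for RFLNA and 2.75 for FSCN1. These increases over CD44 Low were thus shared by CD44 High. Genes described below shared their change as well. CD44 High minus CD44 Low gave 1.60 for CCND1, 2.14 for NT5E and 1.40 for VIM. It gave -3.71 for IGFBP5, -3.23 for LRP2 and -1.87 for ABCB1. That comparison called 2508 of 15951 genes (15.7%). IL7R, the interleukin 7 receptor alpha chain, and the matrix glycoprotein gene TINAGL1 had smaller changes with little spread. Both were named for their small p-values, which favours genes with little spread. IL7R was at 178, 186 and 189 CPM in CD44v6 and at 57.9, 62.3 and 64.4 CPM in CD44 Low (log2 fold change 1.58, SE 0.08), and TINAGL1 at 163, 179 and 152 CPM in CD44v6 and at 45.2, 46.1 and 48.9 CPM in CD44 Low (log2 fold change 1.82, SE 0.10).

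**Figure D2:**
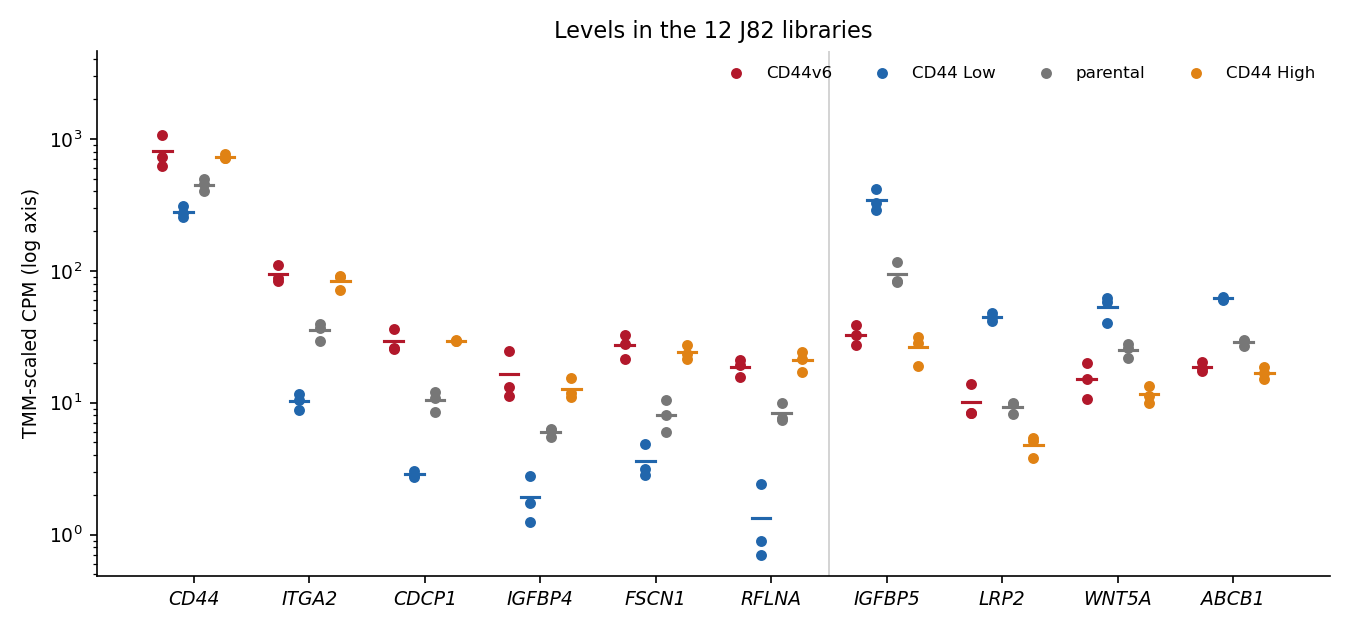
Level of 10 genes in each of the 12 J82 libraries (TMM-scaled CPM, log axis), with a point for each library and a bar at the group mean. The 6 genes left of the line are higher in all 3 CD44v6 libraries than in any CD44 Low library, and the 4 genes to the right are lower. Apart from CD44, the genes were chosen among those whose groups did not overlap.

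Among called genes with a mean log2 CPM of at least 3, the largest decrease was in IGFBP5, an insulin-like growth factor binding protein. IGFBP5 was at 38.6, 32.4 and 27.3 CPM in CD44v6 and at 418, 328 and 289 CPM in CD44 Low (log2 fold change -3.40, SE 0.22, adjusted p = 1.37e-06). The parental mean again lay between the groups, at 94.2 CPM. LRP2, the endocytic receptor megalin, was at 8.32, 13.8 and 8.35 CPM in CD44v6 and at 47.6, 44.5 and 42 CPM in CD44 Low (log2 fold change -2.14, SE 0.20, adjusted p = 1.53e-05). LRP2 differed from parental cells by 0.12 in CD44v6 and by 2.26 in CD44 Low.

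ABCB1, the drug efflux pump P-glycoprotein, was at 20.4, 17.5 and 18.3 CPM in CD44v6 and at 63.2, 60.4 and 61.4 CPM in CD44 Low. The spread within each group was small beside the gap (log2 fold change -1.72, SE 0.10, adjusted p = 9.16e-07). ABCB1 was named in part for its small p-value, which favours genes with little spread. The calsyntenin CLSTN2 fell by 2.12, the protocadherin PCDH7 by 1.76 and the cadherin CDH10 by 1.71 on the log2 scale. RGS7BP, which anchors R7-type regulators of G protein signalling, fell by 1.94, the mast cell carboxypeptidase gene CPA3 by 1.88 and the retinol dehydrogenase gene RDH10 by 1.68. GASK1B fell by 2.23 and TMC3 by 1.41. UGT1A7 fell by 2.61, but genes of the UGT1A locus share exons, so reads could be split among them and its value is uncertain.

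Integrins are the heterodimeric receptors for collagens, laminins and fibronectin. Of 20 subunit genes listed, 13 were tested, 8 rose and none fell, and the median log2 fold change was 0.83, against -0.01 over all genes. The 8 calls were 61.5% of the subunits tested, against 9.58% of all genes tested. Beside ITGA2 these were ITGA11 (1.35), ITGB3 (1.34), ITGA5 (1.15), ITGA1 (1.06), ITGA6 (0.98), ITGA3 (0.83) and ITGB1 (0.58). ITGB1, the beta 1 subunit that pairs with most of these alpha chains, was at 812, 764 and 844 CPM in CD44v6 and at 524, 555 and 538 CPM in CD44 Low. ITGA3, part of a laminin receptor, was at 799, 888 and 779 CPM against 490.0, 429 and 468 CPM, and ITGA5, part of the fibronectin receptor, at 25.1, 28.7 and 24 CPM against 13.5, 9.27 and 12.3 CPM. The groups did not overlap for any of the 3. ITGB4, the hemidesmosomal beta 4 subunit, was at 3.84, 3.88 and 3.15 CPM against 9.78, 5.20 and 6.85 CPM and did not pass (adjusted p = 0.0616). Whichever library was left out, 7 of the 8 calls held; the call of ITGA11, which is low in every library, did not.

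Matrix genes moved in both directions. Of 32 tested collagens, laminins and other matrix genes, 10 rose and 3 fell, with a median log2 fold change of 0.41. These calls were 40.6% of the list, against 9.58% of all genes tested. The basement membrane genes COL4A1 and COL4A2 rose: COL4A2 was at 272, 307 and 235 CPM in CD44v6 and at 95, 90.8 and 108 CPM in CD44 Low (log2 fold change 1.47, SE 0.11), and COL4A1 rose by 1.40. COL6A1 rose by 2.22, COL6A3 by 4.86, TNC, tenascin C, by 1.86, LAMA5 by 1.60 and COL7A1 by 0.70 on the log2 scale. The 3 that fell encode fibrillar collagens: COL3A1 was at 499.9, 482 and 392 CPM in CD44v6 and at 1107, 1265 and 969 CPM in CD44 Low (log2 fold change -1.28, SE 0.12), COL1A2 fell by 1.23 and COL5A2 by 0.46. FN1, fibronectin, had a log2 fold change of -0.32 and did not pass.

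COL13A1 had no count in any CD44 Low library and 27, 0 and 39 counts in CD44v6, which makes it at least 21.4-fold higher against a floor of 3 counts over the CD44 Low group. Its call held in 1 of the 6 fits that left out a library. COL17A1, a hemidesmosomal collagen, is low in every library, at 0.492, 1.01 and 0.830 CPM in CD44v6 and at 0, 0 and 0.230 CPM in CD44 Low.

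**Figure D3:**
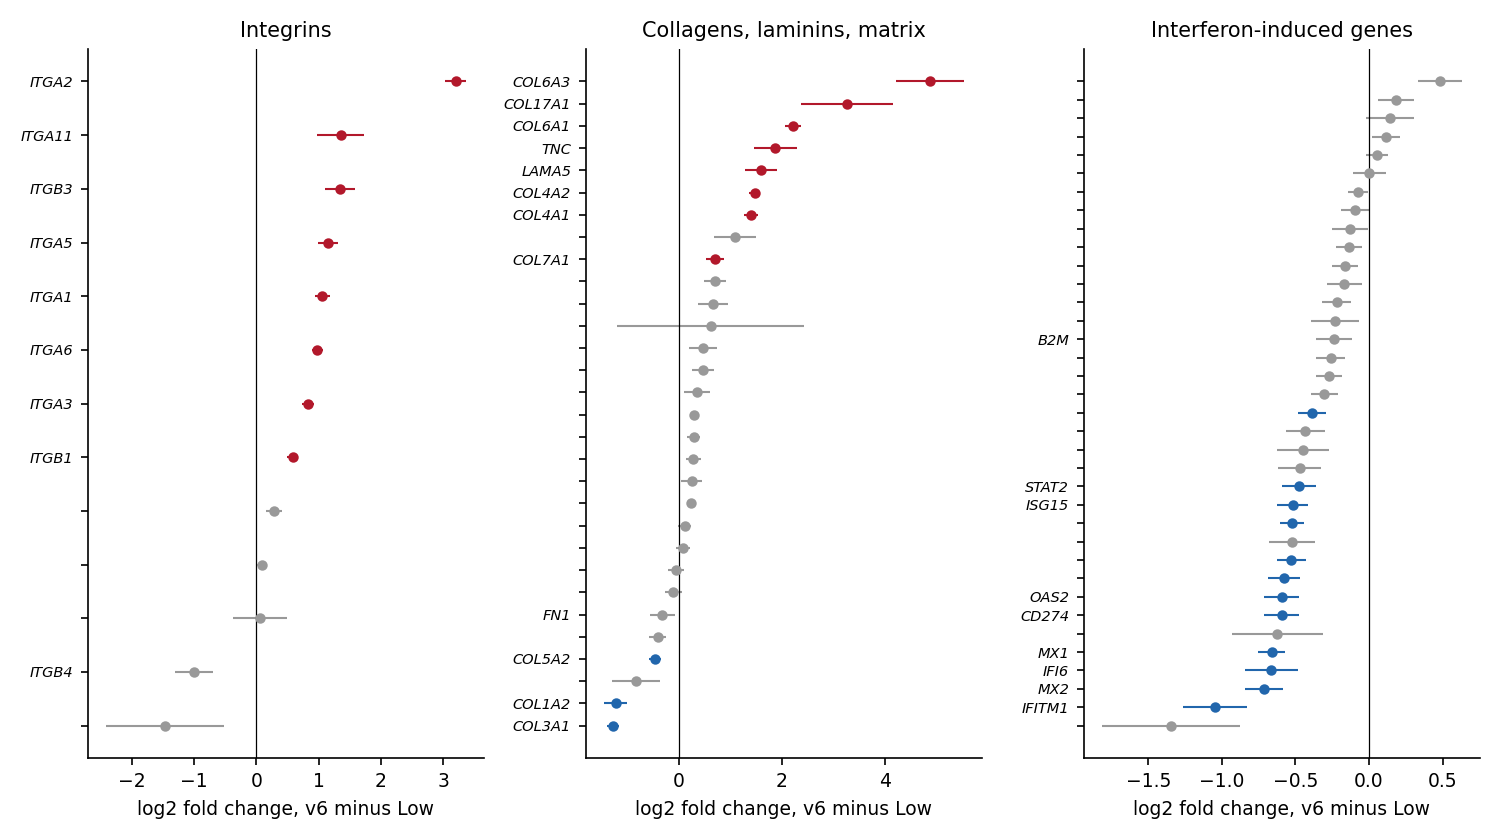
Log2 fold change of CD44v6 minus CD44 Low (horizontal axis) with its standard error for tested integrin, matrix and interferon genes, with names for genes given in the text; red points were called higher, blue lower and grey not called. COL13A1, with no count in CD44 Low, and genes not reported here are not drawn, and no integrin was called lower and no interferon gene higher.

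PLAU and PLAT, which encode the proteases that activate plasminogen, rose. PLAU, urokinase, was at 60.4, 65.7 and 57.6 CPM in CD44v6 and at 20.2, 21.2 and 20.2 CPM in CD44 Low (log2 fold change 1.57, SE 0.11), and PLAT, tissue plasminogen activator, at 34.1, 56.4 and 50.6 CPM against 9.67, 9.27 and 12.2 CPM (log2 fold change 2.18, SE 0.19). The inhibitor genes TIMP3 (0.88), SERPINE2 (0.54) and TIMP1 (0.39) rose as well. ADAMTS5, which cuts aggrecan, was at 23.3, 33.8 and 14.5 CPM against 83.3, 66.9 and 42.6 CPM (log2 fold change -1.43, SE 0.28), and ADAMTS1 fell by 0.65. Of 24 tested genes in the protease list, 5 rose and 2 fell (29.2% called, against 9.58% of all genes tested). The count that rose was 3 without CD44v6 replicate 1, without CD44 Low replicate 1 or without CD44 Low replicate 2.

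MET, the HGF receptor that CD44v6 is known to assist, was at 372, 390.0 and 372 CPM in CD44v6 and at 228, 209.8 and 212 CPM in CD44 Low (log2 fold change 0.80, SE 0.07, adjusted p = 1.10e-05). In CD44 High it was at 421, 426 and 413 CPM, and CD44 High minus CD44 Low gave 0.95. The rise of MET over CD44 Low was thus not particular to CD44v6. MET was the only gene called among 15 tested CD44 partners and splicing factors (6.67%, against 9.58% of all genes tested). MSN, moesin, had a log2 fold change of 0.30, EZR, ezrin, -0.17 and ERBB2 -0.08, and none of them passed. HGF was listed at 0 in the 6 libraries. Of 8 tested hyaluronan genes, CEMIP, which breaks hyaluronan down, rose by 2.61 and CEMIP2 fell by 0.89, and the synthase genes HAS1 and HAS2 were listed at 0.

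Of 21 genes read as output of ERK signalling, 6 rose and 2 fell, and the median log2 fold change was 0.75. These calls were 38.1% of the list, against 9.58% of all genes tested. CCND1, cyclin D1, was at 921, 1037 and 863 CPM in CD44v6 and at 344, 320.2 and 349.6 CPM in CD44 Low (log2 fold change 1.48, SE 0.08, adjusted p = 5.27e-07). SPRY4, a feedback inhibitor of the pathway, was at 6.20, 24.6 and 13.4 CPM against 2.81, 2.01 and 2.82 CPM (log2 fold change 2.53, SE 0.43), with CD44v6 replicate 2 the highest. EPHA2 (1.02), ETV4 (1.02), DUSP6 (0.97) and ETV5 (0.94) rose, while MYC (-0.70) and EPHA4 (-0.69) fell. EGR1 had 0.94 and did not pass (adjusted p = 0.0565). Of 20 immediate-early genes none rose and 1 fell, JUND, by 0.63, a share of 5.0% against 9.58% of all genes tested.

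Of 12 tested EGFR family genes, 4 rose and none fell: the feedback inhibitors ERRFI1 (1.74) and LRIG1 (1.18), the ligand gene NRG1 and the receptor gene ERBB3 (0.47). These calls were 33.3% of the list, against 9.58% of all genes tested. The call of ERBB3 (adjusted p = 0.0498) held in 1 of the 6 fits that left out a library and was lost with upper-quartile scaling, with no filter on low counts and with the replicate number as a block. NRG1 was at 158, 190.2 and 140.1 CPM in CD44v6 and at 71.2, 69.4 and 55.4 CPM in CD44 Low (log2 fold change 1.32, SE 0.12, adjusted p = 1.43e-05). EGFR had a log2 fold change of 0.28 and did not pass, and the ligand genes AREG and TGFA were low in every library, at 0 to 0.955 and 0.443 to 0.836 CPM in CD44v6.

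Of 21 tested TGF-beta genes 10 rose and 2 fell, with a median of 0.52 (57.1% called, against 9.58% of all genes tested). FST, the activin antagonist follistatin, was at 6.70, 7.16 and 5.20 CPM in CD44v6 and at 0.562, 0.108 and 0.461 CPM in CD44 Low (log2 fold change 4.06, SE 0.39). TGFBI, a matrix protein induced by TGF-beta, was at 110.4, 126 and 93.3 CPM against 28.2, 28 and 23.4 CPM (log2 fold change 2.05, SE 0.16, adjusted p = 5.12e-06). The receptor gene TGFBR2 rose by 1.48 and the ligand gene TGFB1 by 1.12, while TGFB3 fell by 1.86 and BMP4 by 0.70. The count that rose was 6 without CD44 Low replicate 2 and 4 with the 6 libraries alone, and the count that fell was 0 without CD44v6 replicate 1 or CD44 Low replicate 1.

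WNT ligands moved in both directions. WNT7A was at 13.8, 22.2 and 13.9 CPM in CD44v6 and at 1.80, 3.14 and 3.22 CPM in CD44 Low (log2 fold change 2.61, SE 0.24), and WNT5A at 15.2, 19.9 and 10.6 CPM against 57.6, 62.4 and 40.4 CPM (log2 fold change -1.81, SE 0.22). Both ligands were chosen among genes whose groups did not overlap. Of 21 tested WNT genes 6 rose, including WNT5B (0.90), the receptor gene FZD7 (0.93) and the co-receptor gene LRP5 (0.80), and 3 fell, WNT5A, the receptor gene FZD1 (-0.98) and LGR4 (-0.59). These calls were 42.9% of the list, against 9.58% of all genes tested. AXIN2, a target of canonical WNT signalling, had -0.16 and did not pass. Without CD44 Low replicate 2 the count that rose was 3.

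IGF binding proteins hold IGF1 and IGF2 in the extracellular space. IGFBP4 was at 11.3, 24.8 and 13.1 CPM in CD44v6 and at 1.24, 1.73 and 2.76 CPM in CD44 Low (log2 fold change 3.10, SE 0.33, adjusted p = 6.45e-05). IGFBP2 rose by 2.50, IGFBP7 by 2.14 and IGFBP6 by 1.04, whereas IGFBP5 fell as described. IGFBP3, at 1086, 895 and 987 CPM against 1375, 1648 and 1459.8 CPM, fell by 0.59. The adaptor gene IRS1 fell by 0.57, a call that held in none of the 6 fits that left out a library, and IGF1R had -0.29 and did not pass.

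Of 22 tested NF-kB targets 7 were higher and none lower (median 0.52), a share of 31.8% against 9.58% of all genes tested. BIRC3, an inhibitor of apoptosis and a regulator of NF-kB itself, was at 50.2, 46.9 and 57.2 CPM in CD44v6 and at 10.2, 8.24 and 13.5 CPM in CD44 Low (log2 fold change 2.28, SE 0.18, adjusted p = 5.53e-06). The cytokine genes IL1B (1.75), CXCL1 (1.63) and IL1A (1.36) and the regulators NFKBIE (1.07) and TNIP1 (0.95) rose too. CSF2 had no count in any CD44 Low library and 29, 23 and 71 counts in CD44v6, at least 39.9-fold higher against a floor of 3 counts over the CD44 Low group. NFKBIA (0.39), TNFAIP3 (1.07) and CXCL8 (0.27) did not pass.

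Interferon-induced genes were called in the opposite direction. Of 38 tested, 13 fell and none rose, with a median of -0.35, and 31 had a negative value. These calls were 34.2% of the list, against 9.58% of all genes tested. MX1, an antiviral GTPase, was at 740.3, 591 and 717 CPM in CD44v6 and at 1089.8, 1106 and 1044 CPM in CD44 Low (log2 fold change -0.66, SE 0.09, adjusted p = 4.83e-04). IFITM1 fell by 1.05, MX2 by 0.71, OAS2 by 0.59, ISG15 by 0.52 and STAT2 by 0.48 on the log2 scale. Against parental cells MX1 differed by -0.43 in CD44v6 and by 0.23 in CD44 Low. CD274, which encodes PD-L1, was at 26.1, 29.1 and 34 CPM against 40.8, 47 and 46.9 CPM (log2 fold change -0.59, SE 0.12). The antigen presentation gene B2M (-0.24) did not pass. A fit of the 6 libraries alone called 5 of the list lower.

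**Figure D4:**
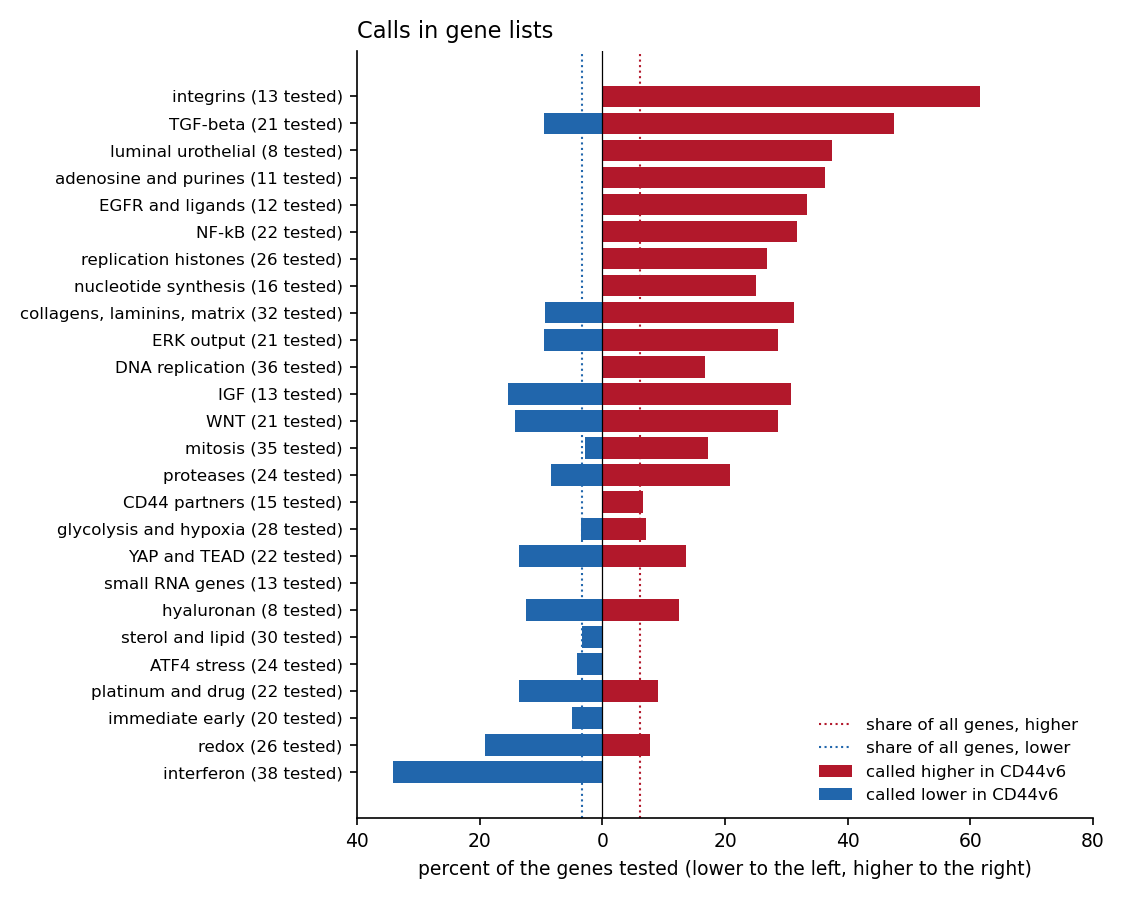
Percent of tested genes called higher (red, to the right) and lower (blue, to the left) in CD44v6 in each list, with dotted lines at 6.18% and 3.40%, the shares over all genes tested. The 13 tested integrins include 8 called higher, and the 38 interferon genes include 13 called lower and none higher.

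The labelled cell type was read against urothelial and epithelial markers. The simple keratin genes KRT7, KRT8 and KRT18 were all detected, and KRT7 was at 2429, 2596 and 2269 CPM in CD44v6 and at 898, 1279 and 983 CPM in CD44 Low (log2 fold change 1.21, SE 0.15). KRT8 (0.16) and KRT18 (0.18) did not pass. The luminal regulators PPARG (0.96) and TBX2 (1.59) rose, but the uroplakin genes and GATA3 did not pass the filter on low counts, and neither did the basal markers KRT5, KRT14 and TP63. Of 10 tested basal genes, CDCP1 and PTHLH (1.26) rose and KRT17 fell, from 125, 138 and 144 CPM in CD44 Low to 49, 49.7 and 65.8 CPM in CD44v6 (log2 fold change -1.31, SE 0.15).

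Calls among epithelial and mesenchymal markers went both ways, and made up 18.2% and 23.1% of the genes tested in those lists, against 9.58% of all genes. CDH1, E-cadherin, was at 1.97, 1.61 and 1.77 CPM in CD44v6 and at 6.01, 4.72 and 6.51 CPM in CD44 Low (log2 fold change -1.68, SE 0.23). VIM, vimentin, was at 565, 536 and 527 CPM against 213, 247 and 237 CPM (log2 fold change 1.22, SE 0.08, adjusted p = 1.37e-06). Of 11 tested epithelial genes 1 rose and 1 fell, and of 13 mesenchymal genes 2 rose, VIM and ZEB1 (0.48), and 1 fell, LUM (-1.16). CDH2 (0.27) and TWIST1 (-0.42) did not pass.

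Called genes of the cell cycle were mostly higher in CD44v6, by small amounts. Of 36 DNA replication genes 6 rose and none fell (median 0.24), with MCM2, a subunit of the replicative helicase, at 1468, 1604 and 1548 CPM against 1043, 1114 and 1126 CPM (log2 fold change 0.49, SE 0.07). Of 35 mitosis genes 6 rose, among them UBE2C (0.75), CDK1 (0.70) and TOP2A (0.65), and 1 fell, the kinesin gene KIF20A (-0.59). TOP2A was at 949.8, 751 and 1010.1 CPM in CD44v6 and at 613, 486 and 625 CPM in CD44 Low, and its log2 difference from parental cells was -0.23 in CD44v6 and -0.89 in CD44 Low. Of 26 tested replication-dependent histone genes 7 rose and none fell (median 0.47). Histone genes are near-identical copies, so their counts could be split among them.

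These counts moved with single libraries and with the fit. The histone count was 3 without CD44v6 replicate 1, 13 without CD44v6 replicate 2, 4 without CD44v6 replicate 3 and 2 without CD44 Low replicate 1. With the 6 libraries alone the counts that rose were 3 for histones, 1 for DNA replication and 2 for mitosis. The DNA replication count was 3 without CD44v6 replicate 1 or CD44 Low replicate 1, and the mitosis count that rose was 3 without CD44 Low replicate 2.

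Among regulators of G1, the CDK inhibitor gene CDKN1A was at 18.9, 30.6 and 27.7 CPM in CD44v6 and at 8.32, 11.3 and 12.8 CPM in CD44 Low (log2 fold change 1.25, SE 0.22), while CDKN2B was at 51.8, 45.8 and 54.5 CPM against 119, 115 and 122 CPM (log2 fold change -1.23, SE 0.10). CCND3 rose by 0.44 and CDKN2A fell by 0.37. In nucleotide synthesis, the ribonucleotide reductase genes RRM2 (0.86) and RRM1 (0.60) rose, as did CTPS1 (0.67) and TK1 (0.34), and none of 16 tested genes fell. These calls were 25.0% of the list, against 9.58% of all genes tested. RRM2 was at 196, 229 and 214 CPM against 110.4, 112 and 128 CPM.

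Genes tied to drug response were mixed. Of 22 tested platinum and drug genes, 2 rose, the excision repair gene ERCC2 (0.43) and the glutathione transferase gene GSTP1 (0.43), and 3 fell, ABCB1, the copper exporter gene ATP7B (-0.81) and ERCC1 (-0.47). Of these 5 calls, that of ABCB1 alone held in every fit that left out a library. Of 26 redox genes, AKR1C1 (0.61) and GSR (0.44) rose and 5 fell, among them AKR1C3 (-0.60), FTL (-0.49) and HMOX1 (-0.46). Calls made up 22.7% of the platinum and drug list and 26.9% of the redox list, against 9.58% of all genes tested. The 2 that rose in each list are near the 6.18% called higher over all genes tested. The AKR1C genes are close paralogs, so their counts may be split. The redox count that fell was 3 without CD44 Low replicate 2 or without CD44 Low replicate 3.

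In the adenosine pathway NT5E, which encodes CD73 and makes adenosine from AMP, was at 118, 98.1 and 130.4 CPM in CD44v6 and at 30.9, 34.4 and 38.1 CPM in CD44 Low (log2 fold change 1.75, SE 0.11, adjusted p = 1.37e-06). The receptor gene ADORA2B (0.68) and the transporter gene SLC29A1 (0.61) rose as well. ADORA1 had 21, 23 and 23 counts in CD44v6 and 3, 0 and 0 in CD44 Low, a ratio of 21.7 with a 95% exact interval of 7.12 to 108 that covers counting error only. None of the 11 tested genes fell, and 36.4% were called, against 9.58% of all genes tested.

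Among surface proteins in use or under study as drug targets in bladder cancer, FGFR1 was at 207, 263 and 205 CPM in CD44v6 and at 91.2, 104 and 94.9 CPM in CD44 Low (log2 fold change 1.22, SE 0.10). FGFR3 had 0.56 and did not pass, and NECTIN4 did not pass the filter on low counts.

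Among the remaining lists, 27.3% of YAP and TEAD targets, 33.3% of stem-like genes and 21.4% of BCL2 family genes were called, from 6, 3 and 3 calls, against 9.58% of all genes tested. Of 22 YAP and TEAD targets 3 rose, ANKRD1, NT5E and F3 (0.56), and 3 fell, RBMS3 (-0.81), IGFBP3 and CCDC80 (-0.33), while CCN1 (-0.24) and CCN2 (-0.55) did not pass. The count of these targets that fell was 6 without CD44v6 replicate 2 and 1 without CD44v6 replicate 1, CD44v6 replicate 3 or CD44 Low replicate 1. Of 14 BCL2 family genes, PMAIP1, which encodes NOXA, rose by 0.91 and BID by 0.36, and BMF fell by 1.96. Of 9 tested stem-like genes, HMGA2 (3.31), SOX9 (0.92) and ALDH1A3 (0.54) rose, and HMGA2 was at 6.20, 4.72 and 5.42 CPM against 0.899, 0.271 and 0.461 CPM. The median of these 9 was -0.29, with 5 negative values, and the call of SOX9 (adjusted p = 0.0497) held in 2 of the 6 fits that left out a library and was lost with median-of-ratios scaling or with no filter on low counts. In sterol synthesis 1 gene fell of 30 (3.33%), INSIG1 (-0.48). In the unfolded protein and amino acid stress list 1 fell of 24 (4.17%), VLDLR (-0.73). Of 28 glycolysis and hypoxia genes (10.7% called), EGLN3 (1.22) and PFKP (0.40) rose and NDRG1 (-0.70) fell. The shares called in the sterol, stress and glycolysis lists are near or below the 9.58% of all genes tested.

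Markers of other cell types were read beside these results. Of 11 immune markers 8 were listed at 0 in the 6 libraries, and the 2 tested, CD14 (-1.26) and CD68 (0.55), were not called. None of the 3 endothelial markers tested was called, and KDR was at 1.97 to 2.16 CPM in CD44v6 and at 3.51 to 3.77 CPM in CD44 Low. Of 9 fibroblast and muscle markers 4 were tested, and LUM and COL3A1 fell. The summed level of that list was 410 to 519 CPM in CD44v6 and 1012 to 1305 CPM in CD44 Low. Its members DCN, PDPN and MYH11 were listed at 0, whereas LUM and COL3A1 had counts in every library.

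Small non-coding RNA genes (signal recognition particle, 7SK and spliceosomal RNAs among them) had a negative value in 13 of 13 tested and none was called. Their summed level was 44117 to 66093 CPM in CD44v6 and 52736 to 82682 CPM in CD44 Low. Part of the mitochondrial messages set 1 library apart. Summed over the NADH dehydrogenase genes they were at 319, 4241 and 547 CPM in CD44 Low, at 183, 630 and 419 CPM in CD44v6 and at 487 to 523 CPM in parental cells. CD44 Low replicate 2 was the high library. Over the whole mitochondrial list the sums in CD44 Low were 2855, 9632 and 4354 CPM, a smaller contrast. The cytochrome oxidase genes COX2 and COX3 did not set that library apart. In CD44 Low, COX2 was at 343, 661 and 770 CPM and COX3 at 290, 754 and 786 CPM. All 13 mitochondrial genes tested had a negative value (median -1.69) and none was called. The part of small RNA and of this library's mitochondrial RNA in the other results was not tested.

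The same contrast in RT-112 shares no library with J82. In RT-112, 2504 of 15645 genes (16.0%) were called. CD44 changed there by 1.66, and the lines differed by -0.15 (adjusted p = 0.793). The change differed between the lines for 1312 of 17438 genes (7.52%), of which 795 were more positive in J82 (4.56%) and 517 less (2.96%). Among them were 550 of the 1528 genes called in J82. Both tests use the same J82 libraries, so that overlap does not measure how far the J82 calls are particular to the line. ITGA2 had a log2 fold change of -0.08 in RT-112, and the lines differed by 3.27 (adjusted p = 8.61e-07). CDCP1 had 0.77 there, a difference of 2.56 (adjusted p = 8.48e-07).

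BIRC3 had a log2 fold change of -1.22 in RT-112 against 2.28 in J82, a difference of 3.48 (adjusted p = 8.42e-05). BIRC3 was not called in RT-112 (adjusted p = 0.104), where its mean was 1.41 CPM in CD44v6 and 3.33 CPM in CD44 Low. CD274 had 1.01 in RT-112, a difference of -1.62 (adjusted p = 0.00139). NT5E had a larger value in RT-112, 2.64, with a difference of -0.91 (adjusted p = 0.0143). For ANKRD1, HMGA2 and PTHLH, with 1.71, 2.41 and 2.24 in RT-112, the difference between the lines did not pass (adjusted p = 0.11, 0.257 and 0.0587). LRP2, CLSTN2 and RGS7BP, which fell in J82, did not pass the filter in RT-112.

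**Figure D5:**
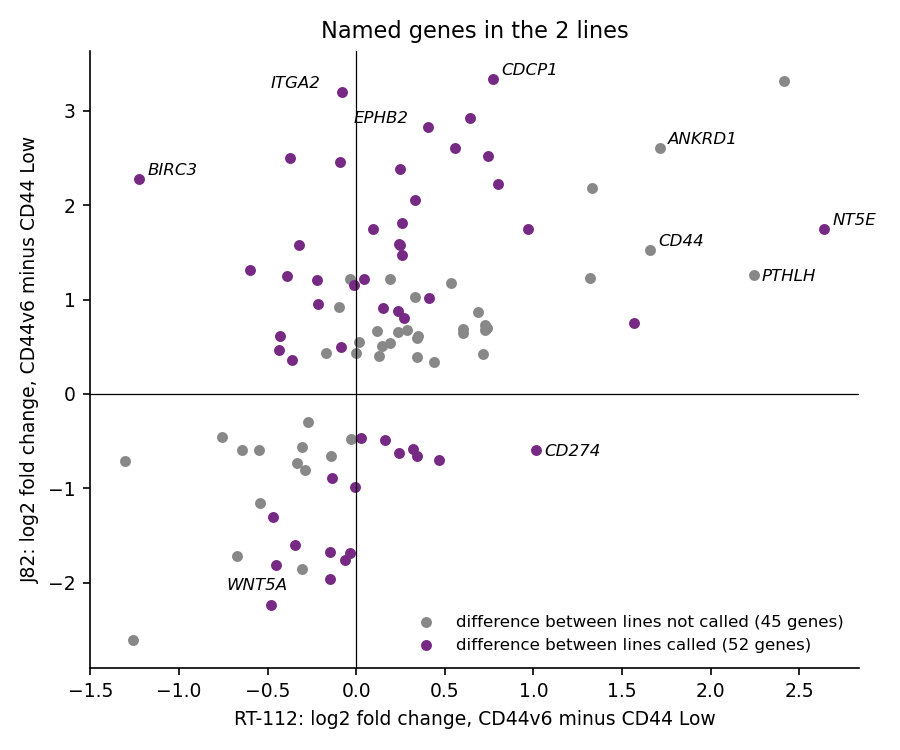
Log2 fold change of CD44v6 minus CD44 Low in J82 (vertical axis) against RT-112 (horizontal axis) for the 97 named genes with a mean of at least 0.5 CPM in all 4 groups. The lines differed for 52 of them (purple), and 73 have the same sign in both lines. Most were named for their change in J82 and some for the difference itself, so these counts do not describe genes in general.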

How the data were processed

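RNA sequencing counts of 24 libraries were used as deposited by the authors: whole-number counts per gene, not normalized. Per the submitters' processing notes, HISAT2, StringTie and GRCh37 were used, with no role or version given. From these counts, 12 J82 libraries were fitted with edgeR 4.0.16 in R 4.3.3 (filterByExpr, TMM scaling, quasi-likelihood test, Benjamini-Hochberg adjustment at 0.05), so that 4 groups share an estimate of the spread. The difference between J82 and RT-112 came from a fit of all 24 libraries. DESeq2 1.42.0, other scalings, filters and left-out libraries were alternatives. The test was first checked on simulated data.

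The comparison, the gene lists and the promoters shown were chosen with earlier results of these data known. Named genes were CD44, the 12 largest changes each way among called genes whose libraries did not overlap and whose mean log2 CPM reached 3, up to 4 called members of each list, the 4 largest differences between the lines each way, and the 5 smallest p-values each way. List members were also given for their role. Promoter sequences are from RefSeq. Intervals and floors cover counting error only. CD24 was not analysed here. Some genes counted in the lists are not reported here.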

Additional observations from a re-analysis of the deposited data

Results flagged for a closer look

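The change from CD44 Low to CD44v6 differed between J82 and RT-112 for 1312 genes by a test of the difference itself (edgeR's quasi-likelihood test on all 24 libraries). The values that follow are J82 minus RT-112 differences of the log2 fold change for named genes that passed it, so a positive value means a more positive change in J82. Among integrin, matrix and protease genes the differences were 3.27 for ITGA2, 1.15 for ITGA5, 1.89 for PLAU, 0.63 for TIMP3 and 1.55 for TINAGL1. Among other surface and cytoskeletal genes they were 2.56 for CDCP1, 2.27 for FSCN1, 2.41 for EPHB2, 2.54 for PCDH1, -1.71 for PCDH7, 2.15 for MME, 1.33 for IL7R, -1.65 for CDH1, 1.16 for FGFR1, -1.62 for CD274, -0.91 for NT5E, -0.76 for CEMIP2 and -1.77 for GASK1B.

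For growth factor, WNT, TGF-beta and IGF genes the differences were 0.52 for MET, 1.89 for NRG1, 0.76 for ERRFI1, 0.89 for ERBB3, 1.78 for SPRY4, 0.60 for ETV4, 1.21 for CCND1, -0.88 for JUND, 3.61 for FST, 1.59 for LTBP2, 1.71 for TGFBI, 3.24 for DKK3, 2.03 for WNT7A, -1.36 for WNT5A, -0.99 for FZD1, 2.47 for IGFBP4 and 2.86 for IGFBP2. For inflammatory, interferon and apoptosis genes they were 3.48 for BIRC3, 1.64 for IL1B, -1.01 for IFI6, 0.74 for PMAIP1, 0.71 for BID and -1.82 for BMF. Differentiation genes gave 1.42 for KRT7, -0.85 for KRT17, 1.16 for PPARG, 1.34 for TBX2 and 3.02 for ZEB1. Cell cycle, drug and metabolic genes gave 1.63 for CDKN1A, 0.57 for MCM2, -0.83 for UBE2C, -0.92 for KIF20A, -0.51 for ERCC1, 1.03 for AKR1C1, -0.66 for FTL, -1.18 for NDRG1 and -1.54 for RDH10. SPOCD1 gave a difference of 4.25. Some of these genes were low in RT-112, where the means are given as CD44v6 and then CD44 Low. These were 0.24 and 1.39 CPM for ZEB1, 0.77 and 0.57 CPM for FST and 0.61 and 0.39 CPM for IGFBP4. BIRC3 was at 1.41 and 3.33 CPM.

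Other differences have a size that depends on the prior count of the fit, because the gene had no counts in a group or did not pass the filter on low counts in RT-112. These were 6.49 for RFLNA, 10.22 for ADORA1, 6.38 for ITGB3, 4.74 for LAYN, -7.26 for NRK, -8.46 for IGFBP5, 8.50 for DOCK8, 8.08 for INPP5D, -6.82 for SULF2 and -6.48 for PAPPA. In J82, DOCK8 had 35, 35 and 11 counts in CD44v6 and none in CD44 Low, at least 26.3-fold higher against a floor of 3 counts over the group. INPP5D had 11, 28 and 16 counts in CD44v6 and none in CD44 Low, at least 17.8-fold higher. SULF2 had no count in CD44v6 and 0, 11 and 16 in CD44 Low, at least 9.26-fold lower over the group, with 1 CD44 Low library also at 0.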

How the results depend on the processing

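The 1528 calls became 636 when only the 6 libraries compared were fitted and 513 with an absolute log2 fold change of at least 1 as a further condition; leaving out 1 library gave 1024 to 1695. For the list genes, 164 calls became 96 and 69 under the same settings, and 124 to 190 with a library left out. The log2 fold change of CD44 was 1.26 to 1.69 with a library left out. The difference between the lines was called for 2095 genes by DESeq2, for 623 with an absolute difference of at least 1, and for 766 to 1794 with a library left out, the fewest without RT-112 CD44v6 replicate 3. It was called for 1067 genes without the filter on low counts, of which 72.9% were more positive in J82, and for 1366 with median-of-ratios scaling (68.9%), against 60.6% of 1312. LAYN, which was not called in J82 (0.07), ranged from -0.036 to 0.19 with a library left out and was below 0 without CD44v6 replicate 1 (-0.036) and without CD44 Low replicate 1 (-0.013); the cause was not tested. Same-numbered libraries of the groups had correlations of their deviations of 0.06, 0.08 and 0.38, the last for replicate 3. Differently numbered libraries had -0.22 to 0.14. The numbers were not taken as pairs in the main fit. With the replicate number as a block, 1701 genes were called, and 201 of the list genes. That block gave 1273 calls for the difference between the lines and a log2 fold change of 1.51 for CD44. Of the named genes, 35 of 132 lost their call with the 6 libraries alone, and of 135, 10 did with all 24 libraries in a fit and 0 with DESeq2. Some called genes named in the text kept their call in 3 or fewer of the 6 fits that left out a library. Those that held in 3 were CDKN2A, COL5A2, CXCL1, DKK3, EGLN3, ERCC1, FTL, GSTP1, IL1B, LRP5, PFKP, RBMS3 and STAT2. In 2 fits, ATP7B, BMP4, COL17A1, COL7A1, ERCC2, HMOX1, LGR4, LTBP2, SERPINE2, SLC29A1, SOX9, TGFB3, TIMP1, TK1, VLDLR and ZEB1 held. In 1 fit, BID, COL13A1, ERBB3, IFI6 and ITGA11 held, and in 0, CCDC80 and IRS1. At these depths, changes of genes with a few counts were not detectable or have no size.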

Other observations

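Zinc finger genes on chromosome 19 were noticed after the values were seen. Of 242 tested genes there whose symbol starts with ZNF, many of which encode DNA-binding proteins with a KRAB domain, 42 fell in CD44v6 and 1 rose, with a median log2 fold change of -0.35 and 202 negative values. Of 251 ZNF genes on other chromosomes, 5 fell and 5 rose (median -0.07). Of 747 other genes on chromosome 19, 81 fell and 13 rose (median -0.24), and of all 15951 genes tested 542 fell (3.40%). The count that fell among the chromosome 19 ZNF genes was 19 without CD44 Low replicate 1, 24 without CD44 Low replicate 3, 27 without CD44v6 replicate 1 or CD44 Low replicate 2, and 28 without CD44v6 replicate 2 or 3. Their median difference from parental cells was 0.27 in CD44 Low and -0.07 in CD44v6, in comparisons that share libraries. For CD44 High minus CD44 Low their median was -0.52, so the lower values were not particular to CD44v6. In RT-112, CD44v6 minus CD44 Low gave -0.23, against -0.16 for ZNF genes on other chromosomes. Zinc finger genes are close paralogs, so their counts may be split among them.

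Along RefSeq gene order, with 15340 tested genes matched, the run of 51 neighbouring tested genes with the highest median log2 fold change was on chromosome 5, from SH3RF2 past RPL7P1 to GALNT10 (0.32, 13 called higher and none lower). Over all 14136 runs, the 1st and 99th percentiles were -0.37 and 0.23.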
